A study of Urocitellus parryii with 24 samples.

Results

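Splicing factors and RNA helicases of Arctic ground squirrel (AGS) liver are described here through torpor, arousal and summer. The study listed 1329 genes that differed among its 3 states on these same arrays. Every listed gene whose symbol begins with SF3, SFRS, SRSF, HNRN, HNRP, SNRP, PRPF, DDX, DHX, RBM or LSM was taken, which gave 22 genes, each on 1 of the 9600 probes of the array. Where a gene had several probes, the study kept the one with the lowest p-value of its ANOVA. Shares over all probes, given below, carry no such choice. Each gene was paired with the probe whose 3 state means equal the listed means within 0.0001. Because the list was made from differences among torpor, arousal and summer, a count of these genes that differ among those states is a description and not independent evidence.

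Liver RNA of 24 animals was labelled with 33P and hybridized to nylon membranes spotted with AGS cDNA clones, with 1 animal on each membrane. The groups were 4 animals in early torpor, 5 in late torpor, 4 in early arousal, 4 in late arousal and 7 summer active animals taken after reproduction. Torpor (T) pools the 9 animals of both torpor stages, arousal (A) the 8 animals of both arousal stages, and the summer active animals are P, for post-reproduction. Torpid and aroused animals were hibernating under short days, carried abdominal temperature transmitters and were given no food throughout hibernation. Animals were first housed under long days, and the light cycle of the summer animals at sampling is not stated. Torpid animals were killed without anaesthesia and all others under isoflurane, so anaesthesia and torpor cannot be told apart. The labels give no strain or allele that separated the groups. The tissue was liver, in which a lower share of some cell type and less of an RNA per cell cannot be told apart.

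Introns are removed from pre-mRNA by the spliceosome, which is built from small nuclear ribonucleoproteins (snRNPs). The SF3A and SF3B proteins belong to the U2 snRNP, which binds the branch site. SR proteins mostly promote, and heterogeneous nuclear ribonucleoproteins (hnRNPs) often oppose, the use of nearby splice sites. DEAD-box RNA helicases (DDX) use ATP to remodel RNA and RNA-protein complexes in splicing, ribosome assembly and translation. In hibernators, transcription and translation are known to be strongly slowed at the low body temperature of torpor and to resume at each arousal.

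Values are the log2 of a spot's background-subtracted signal over the array's median spot, so that 0 is the median spot and a difference of 1 is a 2-fold difference. Levels are compared between animals for the same gene and not between genes, since each spot holds its own clone. A gene is called different where its Benjamini-Hochberg adjusted p over all probes was under 0.05 in limma. Median signals per array ran from 54.1 to 132 units over median backgrounds of 13.3 to 19.9. On each array 8157 to 9197 probes stood over 2 times their background. The median of the array signals was 79.5 units in torpor, 108 in arousal and 76.1 in summer. The part of array brightness in the results was not tested.

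The membranes (filters) were of 2 sets, named A1 and A2 in the scanner headers. All 9 torpor arrays, 7 of the 8 arousal arrays and 2 of the 7 summer arrays were A1, while 5 summer arrays and late arousal replicate 2 were A2. Set and season are therefore largely shared, and the counts of each comparison with summer are given without and with the set as a block. Animal numbers are uneven too. Most hibernating animals have numbers that begin with 04, while of the summer animals only replicate 7 does, on A2. Number prefix and season are thus also largely shared on A1 arrays, and what the prefix stands for is not given. The cell type markers were taken from the study's list of genes that differed among its states. Their levels are therefore not an independent reading of cell composition. All 9 hepatocyte markers, among them ALB and TTR, stood over 2 times background on all 24 arrays. Most probes of each array passed that level, so passing it does not identify the tissue. The summed hepatocyte markers ran from 8.99 to 10.4 in T, from 8.76 to 9.51 in A and from 9.31 to 9.92 in P. The summed levels of 7 leukocyte markers were 3.84 to 5.32 in T, 3.33 to 4.00 in A and 3.20 to 5.45 in P, and 6 of the 7 stood over 2 times background on all arrays. The red blood cell marker HBA2 ran from -0.04 through a median of 1.21 to 2.97 in T, from -1.31 through -0.09 to 1.27 in A and from 0.63 through 1.12 to 1.27 in P. The summed levels of 3 endothelial markers, 2 of them over 2 times background on all arrays, were 2.63 to 3.59 in T, with a median of 3.04, 2.14 to 3.03 in A, with a median of 2.65, and 2.29 to 3.20 in P. Those of 5 fibroblast and stellate cell markers, 3 of them over 2 times background on all arrays, were 1.47 to 2.13 in T, 1.56 to 2.08 in A and 1.56 to 2.34 in P. For 6 heart muscle markers, 4 of them over 2 times background on all arrays, they were 1.94 to 2.14 in T, 1.84 to 2.32 in A and 1.75 to 2.04 in P. No marker of the 6 cell type lists was below that level on every array, and the part of cell composition in the results was not tested.

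The 22 genes fall into 3 U2 snRNP genes (SF3A3, SF3B1, SF3B2), 3 SR or SR-related genes (SFRS1, SFRS4, SFRS2IP), 5 hnRNP genes (HNRNPA1, HNRNPL, HNRPLL, HNRPDL, HNRPH2), 4 DEAD-box helicases (DDX3X, DDX5, DDX46, DDX47), 6 genes of RNA-binding motif proteins (RBM4, RBM5, RBM16, RBM25, RBM42, RBMS1) and LSM14B. Some carry older names: SFRS1 is now SRSF1, SFRS4 is SRSF4, SFRS2IP is SCAF11 and RBM16 is SCAF8. A cDNA clone can also bind transcripts of close relatives, which these arrays do not separate within the SR, hnRNP and DDX families.

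The scanner marked 5 spots of these genes as empty, all on A2 membranes. SF3B2, a core subunit of SF3B, was marked on 4 of the 6 A2 arrays and on none of the 18 A1 arrays. Its log2 level on A1 arrays ran from -0.78 to 0.43 in T, from -1.01 to -0.26 in A, and was -0.43 and -1.05 in the 2 summer animals. On A2 arrays it was -4.50 in late arousal replicate 2 and ran from -6.43 to -3.64 in 4 summer animals, with the remaining summer spot below its background. The A2 spots had raw signals of 10.9 to 15.6 units against 46.1 to 93.6 on A1. The apparent rise of SF3B2 from summer to torpor, 3.32 (SE 0.68, adjusted p = 0.00391), was 0.59 (SE 0.36, adjusted p = 0.641) with the set as a block.

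RBM42, an RNA-binding protein found with hnRNP K, was marked on 1 A2 array. Its levels were -4.15 to -2.76 in the 5 A2 summer animals and -2.51 and -1.66 in the A1 pair. It stood over 2 times background on 13 of 18 A1 arrays and 1 of 6 A2 arrays. SF3B2 and RBM42 are set aside from the counts of genes called, which leaves 20 genes. RBMS1, a single-strand nucleic acid binding protein, stood over 2 times background on 22 arrays and each of the other 19 on all 24.

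Between the membrane sets, with state in the fit, 7 of the 20 genes differed, 5 lower and 2 higher on A2, against 20.1% of all probes, 10.3% lower and 9.8% higher. Without summer active replicate 3, 1 of the 2 A1 summer arrays, 3 of the 20 were called. The set was not part of the study's test, but it is uneven among the states, so the choice of these genes was not independent of it. Over summer arrays alone, 3 of the 20 were called, SFRS4, SF3A3 and DDX46, against 7.11% of all probes. The plot of levels by group and membrane set shows the 7 genes and SF3B2.

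**Figure D1:**
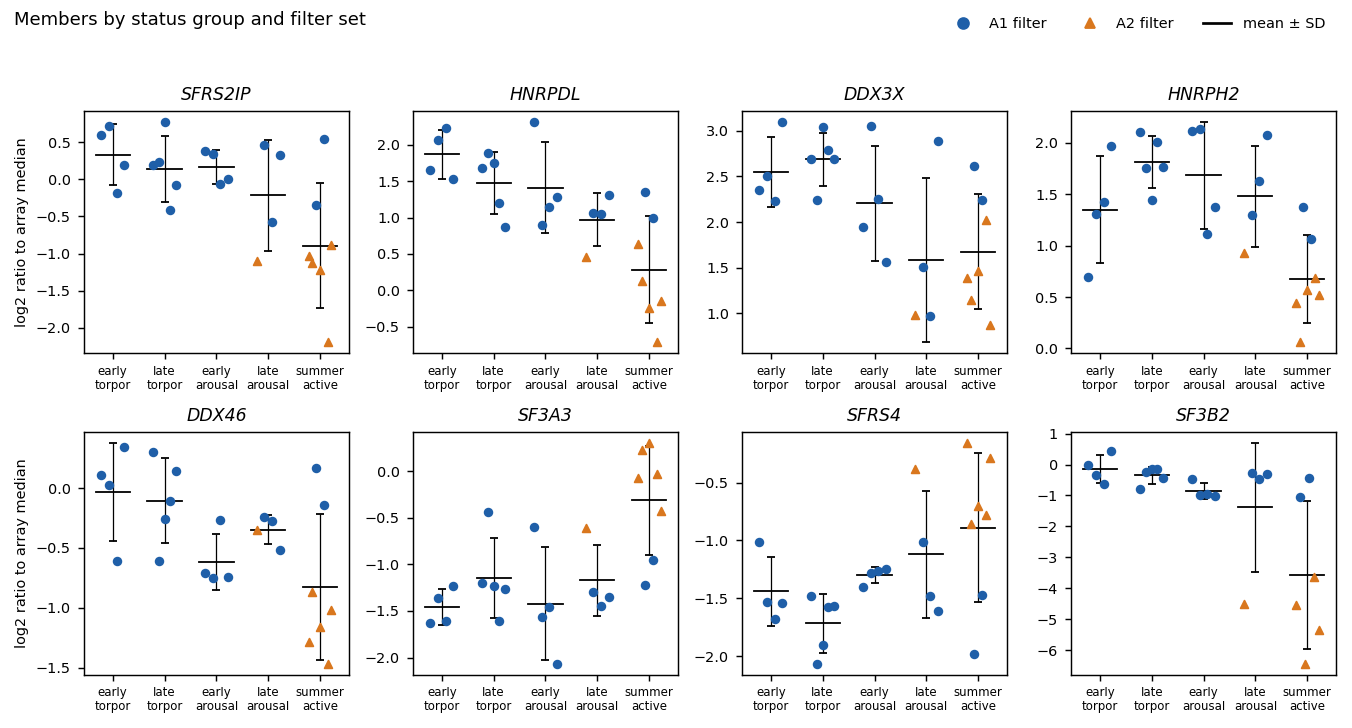
Log2 ratio to the array median (vertical axes) of the 7 genes that differed between membrane sets and of SF3B2, by status group; points are animals, blue circles on A1 and orange triangles on A2 membranes, with the group mean and SD. In summer the A2 animals lie apart from the 2 A1 animals in each of these genes, below them in 6 panels and above them for SF3A3 and SFRS4.

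SFRS4 is an SR protein that acts in constitutive and alternative splicing. Its levels in summer were -0.85, -0.78, -0.70, -0.29 and -0.16 on A2 membranes against -1.98 and -1.47 on A1. Late arousal replicate 2, on A2, had -0.39, while the other late arousal animals had -1.61, -1.48 and -1.01. All 6 A2 arrays were above all 18 A1 arrays, a separation seen in 3.45% of all probes in either direction. The set coefficient was 1.08 (SE 0.20, adjusted p = 0.000341).

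SF3A3, which helps hold the SF3A complex on U2, had summer levels of -0.43 to 0.30 on A2 and of -1.22 and -0.96 on A1. The A2 minus A1 coefficient of SF3A3 was 0.97 (SE 0.24, adjusted p = 0.00508). Its 5 summer A2 animals lay above every hibernating animal on A1, whose highest value was -0.44, and the 2 summer A1 animals lay among them.

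SFRS2IP, an SR-related protein that binds SR proteins and the snRNPs, ran from -2.20 to -0.88 in the 5 summer A2 animals and was 0.55 and -0.35 in the A1 pair. Late arousal replicate 2 had -1.10 and lay below the 7 A1 arousal animals. The coefficient of SFRS2IP was -1.33 (SE 0.27, adjusted p = 0.0012). All A2 arrays lay below all A1 arrays for this gene and for HNRPDL, an AU-rich element binding hnRNP, whose coefficient was -1.09 (SE 0.28, adjusted p = 0.00705).

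DDX3X, a helicase of translation initiation and mRNA export, was 0.87, 1.14, 1.39, 1.46 and 2.02 in the summer A2 animals and 2.24 and 2.62 in the A1 pair. The coefficient of DDX3X was -1.05 (SE 0.31, adjusted p = 0.0188). HNRPH2, an hnRNP that binds G-rich runs, was 0.06 to 0.69 in the summer A2 animals and 1.07 and 1.38 in the A1 pair, with a coefficient of -0.76 (SE 0.25, adjusted p = 0.0325). DDX46, a helicase that helps U2 bind the branch site, had -0.67 (SE 0.24, adjusted p = 0.046). That call was lost in 14 of the 24 fits with 1 array left out. For DDX46 the 5 summer A2 animals, at -1.47 to -0.87, lay below all 18 A1 arrays, whose lowest value was -0.75, but late arousal replicate 2 had -0.35 and lay within the other arousal animals.

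In torpor against summer without the block, 14 of the 20 genes differed, 12 higher and 2 lower, against 9.86% of all probes, 5.5% higher and 4.35% lower, from the contrast that the list itself was made on. The count was 9 without summer active replicate 2 and 7 without either of replicates 5 and 7. Of the 14 calls, 7 were kept whichever array was left out. The call was lost in 15 of 24 such fits for RBM16, in 12 for SFRS4 and in 10 for RBM5. The median difference of the 20 genes was 0.68, where the median of all probes was -0.02. With the set as a block none of the 20 was called, against 0.969% of all probes, and 5 had an unadjusted p under 0.05, where 10.4% of all probes did. On A1 arrays alone, with 2 summer animals, none was called either, against 0.896%, and 3 had an unadjusted p under 0.05, where 8.62% of all probes did. The median difference with the block was 0.33, with 17 of 20 above 0, where that of all probes was 0.01.

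**Figure D2:**
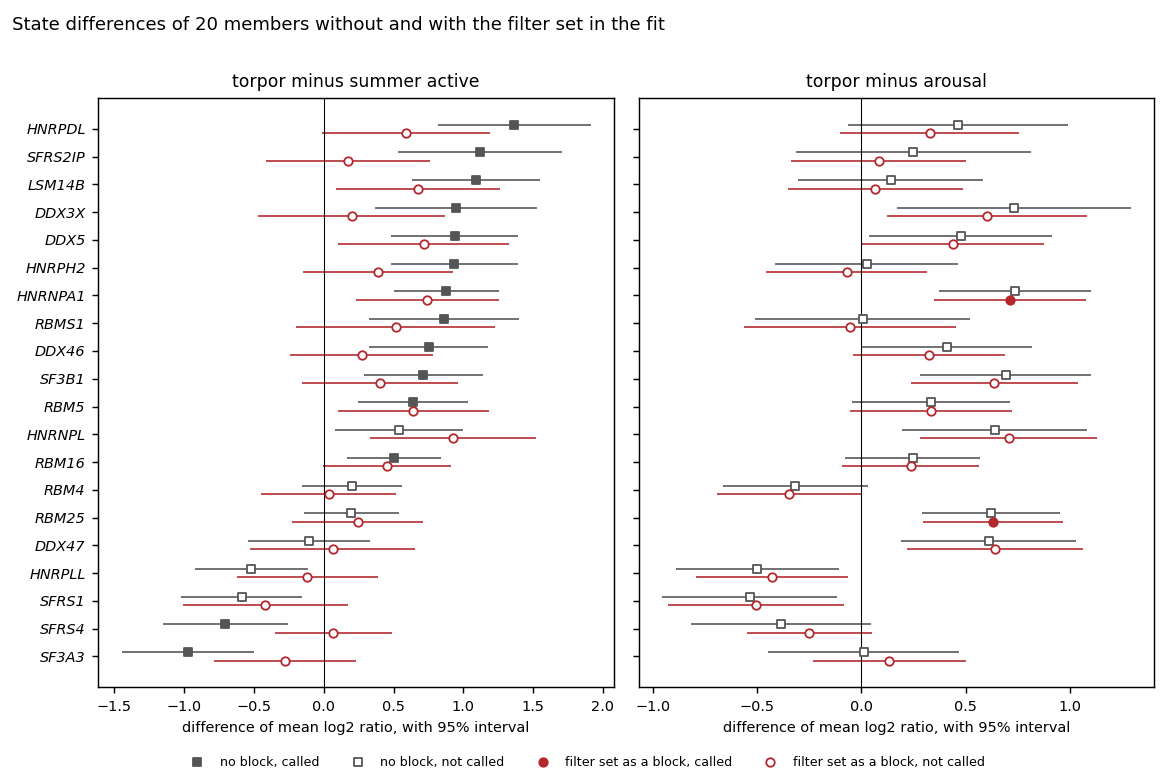
Differences of mean log2 ratio (horizontal axes) with 95% intervals for 20 genes, torpor minus summer active on the left and torpor minus arousal on the right; grey squares are from the fit without and red circles from the fit with the membrane set as a block, filled where the adjusted p was under 0.05. On the left 14 squares and no circle are filled; on the right no square and 2 circles, HNRNPA1 and RBM25, are filled.

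Among the U2 snRNP genes, SF3B1, the branch-site scaffold of SF3B, was higher in torpor than in summer by 0.71 (SE 0.21, adjusted p = 0.0298), and by 0.41 (SE 0.27, adjusted p = 0.685) with the block. SF3A3 was lower in torpor, at -0.97 (SE 0.23, adjusted p = 0.00911), and -0.28 (SE 0.25, adjusted p = 0.786) with the block. Of the SR genes, SFRS4 was lower in torpor without the block, -0.70 (SE 0.22, adjusted p = 0.0392), and turned to 0.07 (SE 0.20) with it and to 0.13 (SE 0.23) on A1 arrays. SFRS2IP was higher by 1.12 (SE 0.28, adjusted p = 0.0141), which became 0.17 (SE 0.29, adjusted p = 0.906). SFRS1, a founding SR protein, was not called, at -0.59 (SE 0.21, adjusted p = 0.075) and -0.42 with the block.

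Of the 5 hnRNP genes, 3 were higher in torpor than in summer in the fit without the block. HNRPDL ran from 0.87 through a median of 1.67 to 2.23 in torpor and from -0.72 through 0.12 to 1.35 in summer, where the 2 A1 animals held the highest values. Its difference was 1.37 (SE 0.27, adjusted p = 0.00222) and 0.59 (SE 0.29, adjusted p = 0.49) with the block. HNRPH2 differed by 0.93 (SE 0.22, adjusted p = 0.00899) and by 0.39 (SE 0.26, adjusted p = 0.686) with it.

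HNRNPA1, a repressor of splice sites that also carries mRNA out of the nucleus, was 0.88 higher in torpor (SE 0.18, adjusted p = 0.00408), 0.74 higher with the block (SE 0.25, adjusted p = 0.2) and 0.87 higher on A1 arrays (SE 0.25, adjusted p = 0.142). Its set coefficient was -0.19, with a 95% interval of -0.68 to 0.30. HNRNPL, which binds CA repeats, was not called: its difference was 0.54 (SE 0.22, adjusted p = 0.123) without and 0.92 (SE 0.29, adjusted p = 0.139) with the block. HNRPLL, a relative of HNRNPL, was at -0.52 (SE 0.20, adjusted p = 0.093) and at -0.12 with the block.

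The helicases DDX3X, DDX5 and DDX46 were higher in torpor than in summer without the block. DDX5, a coregulator of transcription and splicing, ran from 3.82 through 4.08 to 4.63 in torpor and from 2.26 through 2.97 to 4.29 in summer. Its 2 A1 summer animals, at 2.74 and 4.29, lay far apart, the higher within and the lower below the torpor range. DDX5 differed by 0.94 (SE 0.22, adjusted p = 0.00879) and by 0.72 (SE 0.30, adjusted p = 0.366) with the block. DDX3X differed by 0.95 (SE 0.28, adjusted p = 0.033) and by 0.20 (SE 0.33, adjusted p = 0.906). DDX46 differed by 0.75 (SE 0.21, adjusted p = 0.0222) and by 0.27 (SE 0.25, adjusted p = 0.792), and on A1 arrays by -0.09 (SE 0.25). DDX47, a helicase of ribosomal RNA processing, was at -0.11 (SE 0.21, adjusted p = 0.797).

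LSM14B, an RNA-binding protein of the LSM14 family linked to stored mRNA, ran from -0.43 through 0.09 to 0.49 in torpor and from -1.50 through -1.09 to -0.30 in summer. In summer its 2 A1 animals, at -0.59 and -0.30, were among the 3 highest. LSM14B was higher in torpor by 1.09 (SE 0.22, adjusted p = 0.00369) and by 0.67 (SE 0.29, adjusted p = 0.38) with the block. RBM5, a regulator of splice-site pairing, was at 0.64 in both fits, with an SE of 0.19 and an adjusted p of 0.0339 without the block and an SE of 0.26 and an adjusted p of 0.354 with it. RBM16, a protein that binds the tail of RNA polymerase II, was at 0.50 (SE 0.16, adjusted p = 0.0492) and at 0.45 (SE 0.22, adjusted p = 0.488). The set coefficients of RBM5 and RBM16 were 0.00 and -0.07. RBMS1 was higher by 0.86 (SE 0.26, adjusted p = 0.0357) and by 0.52 (SE 0.35, adjusted p = 0.686) with the block. RBM4, an alternative splicing regulator, and RBM25, which binds exonic enhancers, were not called, both at 0.20 without the block. Torpor and summer levels overlapped in each of the 20 genes, and 0.774% of all probes had no overlap.

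In arousal against summer, 6 of the 20 genes differed without the block, 4 higher and 2 lower, against 8.47% of all probes, 2.61% higher and 5.85% lower. The higher genes were LSM14B at 0.95 (SE 0.23, adjusted p = 0.0117), HNRPH2 at 0.91 (SE 0.23, adjusted p = 0.0144), HNRPDL at 0.90 (SE 0.27, adjusted p = 0.0394) and RBMS1 at 0.85 (SE 0.27, adjusted p = 0.0461). The lower genes were SF3A3 at -0.98 (SE 0.24, adjusted p = 0.0113) and DDX47 at -0.72 (SE 0.22, adjusted p = 0.0396). With the block none was called, against 2.71% of all probes, and LSM14B and DDX47 had unadjusted p-values of 0.0323 and 0.0415, where 12.8% of all probes had one under 0.05. On A1 arrays none was called, against 0.876%, and DDX47 alone had an unadjusted p under 0.05, where 10.8% of all probes did, with a difference of -0.95 (SE 0.33, adjusted p = 0.227). After quantile scaling 5 of the 20 were called, 4 higher and 1 lower, with DDX5 gained and RBMS1 and DDX47 lost, against 6% of all probes, and the calls over all probes moved from 251 higher and 562 lower to 293 higher and 283 lower. The count of the 20 genes was 3 when any 1 of early arousal replicates 1, 3 and 4, late arousal replicate 4 and summer active replicates 2, 4 and 6 was left out. Arousal and summer levels overlapped in each of the 20 genes, and 0.891% of all probes had no overlap. Both comparisons with summer share its 7 arrays.

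Torpor and arousal could be compared almost wholly on A1 membranes. Without the block none of the 20 genes was called between them, against 0.469% of all probes, and 9 had an unadjusted p under 0.05, where 14.1% of all probes did, in a contrast the list was made on. With the block 2 were called, HNRNPA1 and RBM25, both higher in torpor, against 1.29%, and on A1 arrays HNRNPA1 alone, against 1.38%. Of all probes called without the block 37 were higher and 8 lower in torpor, and after quantile scaling 4 were higher and 13 lower. No gene of the 20 was called after quantile scaling, against 0.177% of all probes without the block, 0.292% with it and 0.177% on A1 arrays, and 7, 7 and 5 had an unadjusted p under 0.05, where 9.3%, 11.2% and 10.5% of all probes did. In the methods' ANOVA with Tukey's test, whose second step is not adjusted over probes, 7 of the 20 passed, 5 higher and 2 lower in torpor, against 6.23% of all probes. Levels overlapped in each of the 20 genes, and 0.19% of all probes had no overlap. The markers of each cell type followed, except heart muscle, also had higher medians in torpor than in arousal. They come from the same list, made in part on this contrast, and their part in these differences was not tested. The median difference of the 20 genes was 0.29, with 16 above 0, where the median of all probes was 0.05. After quantile scaling it was 0.20, with 15 above 0, where that of all probes was -0.0049.

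**Figure D3:**
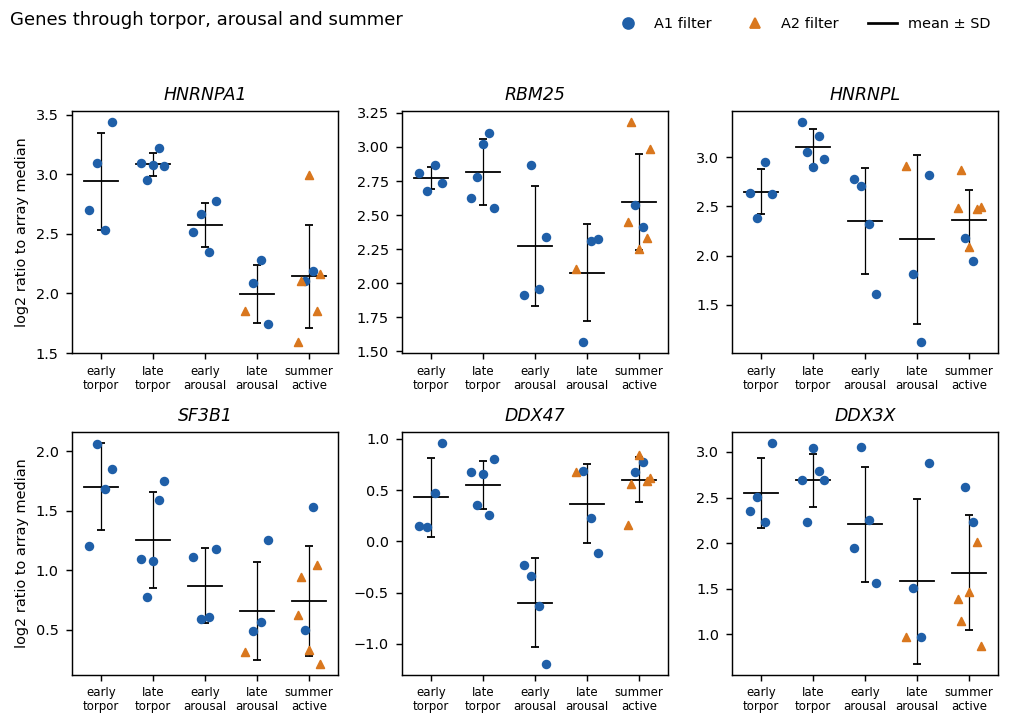
Log2 ratio to the array median (vertical axes) by status group for the 6 genes with the lowest p between torpor and arousal in the fit with the membrane set as a block; points are animals, blue circles on A1 and orange triangles on A2 membranes, with the group mean and SD. HNRNPA1 is lowest in late arousal among the 4 hibernating groups, and DDX47 is low in early arousal, where all 4 animals lie below 0.

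HNRNPA1 stood at 2.53, 2.70, 3.10 and 3.44 in early torpor and at 2.96, 3.07, 3.08, 3.09 and 3.22 in late torpor. It was 2.35, 2.51, 2.67 and 2.77 in early arousal and 1.74, 1.85, 2.09 and 2.28 in late arousal. Summer levels ran from 1.59 through a median of 2.11 to 3.0. The late torpor animals lay above all arousal animals, the late arousal animals lay below all torpor and early arousal animals, and early torpor overlapped early arousal. The torpor minus arousal difference was 0.74 (SE 0.18, adjusted p = 0.051) without the block, 0.71 (SE 0.18, adjusted p = 0.0433) with it and 0.67 (SE 0.16, adjusted p = 0.0382) on A1 arrays.

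RBM25 was 2.68, 2.74, 2.81 and 2.87 in early torpor and 2.55, 2.63, 2.78, 3.02 and 3.10 in late torpor. Its levels were 1.91, 1.96, 2.34 and 2.86 in early arousal and 1.56, 2.11, 2.31 and 2.32 in late arousal. In summer they ran from 2.25 through 2.45 to 3.18, overlapping all groups. Early arousal replicate 2, at 2.86, was the only arousal animal within the torpor range. The difference of RBM25 was 0.62 (SE 0.16, adjusted p = 0.0626) without and 0.63 (SE 0.16, adjusted p = 0.0495) with the block.

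HNRNPL and SF3B1 differed in the same direction without passing the test. HNRNPL was 2.39, 2.62, 2.64 and 2.95 in early torpor, 2.90 to 3.36 in late torpor, 1.61, 2.32, 2.70 and 2.78 in early arousal and 1.12, 1.82, 2.82 and 2.91 in late arousal. Its late torpor animals overlapped late arousal only through late arousal replicate 2, the A2 array. The difference of HNRNPL was 0.71 with the block (SE 0.21, adjusted p = 0.0765).

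SF3B1 was 1.2, 1.69, 1.85 and 2.06 in early torpor, 0.77 to 1.75 in late torpor, 0.59, 0.61, 1.11 and 1.18 in early arousal and 0.31, 0.49, 0.56 and 1.25 in late arousal. All early torpor animals lay above all early arousal animals for SF3B1. Its torpor minus arousal difference was 0.64 with the block (SE 0.19, adjusted p = 0.0871). DDX3X had a difference of 0.60 with the block (SE 0.23, adjusted p = 0.19) and arousal levels that spread from 0.97 to 3.05. All 4 helicases were higher in torpor with the block, and none was called. On A1 arrays the mean of DDX47 was 0.50 in torpor and -0.23 in arousal, and that of DDX5 was 4.10 and 3.63.

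SFRS1, HNRPLL and RBM4 lay on the opposite side without passing the test. SFRS1 was at -0.51 (SE 0.21, adjusted p = 0.214) with the block, HNRPLL at -0.43 (SE 0.18, adjusted p = 0.223), and RBM4 at -0.34 (SE 0.17, adjusted p = 0.315). SFRS1 was -0.98, -0.17, 0.06 and 0.19 in early torpor against 0.65, 0.69, 0.98 and 1.16 in late arousal, with no overlap between these stages, while early arousal and late torpor overlapped both. SFRS4 was also lower in torpor on A1 arrays and was not called. Relative to the mean of its group means, it was 0.07 in early and -0.21 in late torpor, and 0.21 in early and 0.14 in late arousal. HNRPH2, SFRS2IP, RBMS1, SF3A3 and LSM14B lay between -0.07 and 0.13 in torpor minus arousal with the block.

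The turns between torpor and arousal use arrays of a contrast that the list was made on, so counts at them are a description. At the turn from late torpor to early arousal, 1 of the 20 genes was called, against 0.667% of all probes, 1.54% with the block and 1.46% on A1 arrays. It was DDX47, whose levels were 0.26, 0.35, 0.66, 0.68 and 0.80 in late torpor and -1.19, -0.63, -0.34 and -0.23 in early arousal. All early arousal animals lay below all animals of early and late torpor, summer and late arousal. The difference was -1.15 (SE 0.23, adjusted p = 0.0174) without the block, had an adjusted p of 0.016 with it and of 0.0239 on A1 arrays, where all 9 animals of this turn lie. The call was lost when any 1 of early arousal replicates 1 and 4 and late torpor replicates 3 and 4 was left out, with differences of -1.27 to -0.95 over all arrays left out in turn. After quantile scaling the adjusted p was 0.073, against 0.0208% of all probes called. Among all probes called at this turn 63 were lower and 1 higher in early arousal, and after quantile scaling 1 was lower and 1 higher. The median signals of the arrays ran from 72.8 to 91.5 units in late torpor and from 100 to 132 in early arousal.

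DDX47 in late arousal was -0.11, 0.23, 0.68 and 0.69, within the range of summer, 0.16 to 0.84, apart from 1 animal. Late minus early arousal was 0.97 for this gene (SE 0.24, unadjusted p = 0.00045, adjusted p = 0.349). Between early and late arousal 7.79% of all probes had an unadjusted p under 0.05, and between late torpor and early arousal 12.8% did. The other genes with an unadjusted p under 0.05 from late torpor to early arousal were HNRNPL at -0.75, RBM25 at -0.55, HNRNPA1 at -0.51 and HNRPLL at 0.58, all with adjusted p-values of 0.264 or more.

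From late arousal to early torpor none of the 20 genes was called, and none of all 9597 probes was, and 1 probe, or 0.0104%, was called with the block. Of the 20 genes 6 had an unadjusted p under 0.05 at this turn, where 773 of all probes did. Here too the arrays are those of a contrast that the list was made on. HNRNPA1 at 0.95 (SE 0.24), SF3B1 at 1.05 (SE 0.28) and SFRS1 at -1.10 (SE 0.26) had the lowest, with adjusted p-values of 0.29, 0.293 and 0.279.

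The stages within a state were not compared in making the list. Their spread entered the error of its ANOVA, so the counts here are not independent of the list. Between early and late torpor none of the 20 genes was called and no probe was, and 1 of the 20 and 458 probes had an unadjusted p under 0.05. That gene was SFRS1, at -0.01, 0.28, 0.40, 0.66 and 0.88 in late torpor, with a late minus early difference of 0.67 (SE 0.25, adjusted p = 0.907). Between early and late arousal again none of the 20 and no probe was called. DDX47 and HNRNPA1, at -0.58 (SE 0.24, adjusted p = 0.56), had an unadjusted p under 0.05, as did 748 probes. The median late minus early difference of the 20 genes was 0.07 in torpor and -0.19 in arousal.

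**Figure D4:**
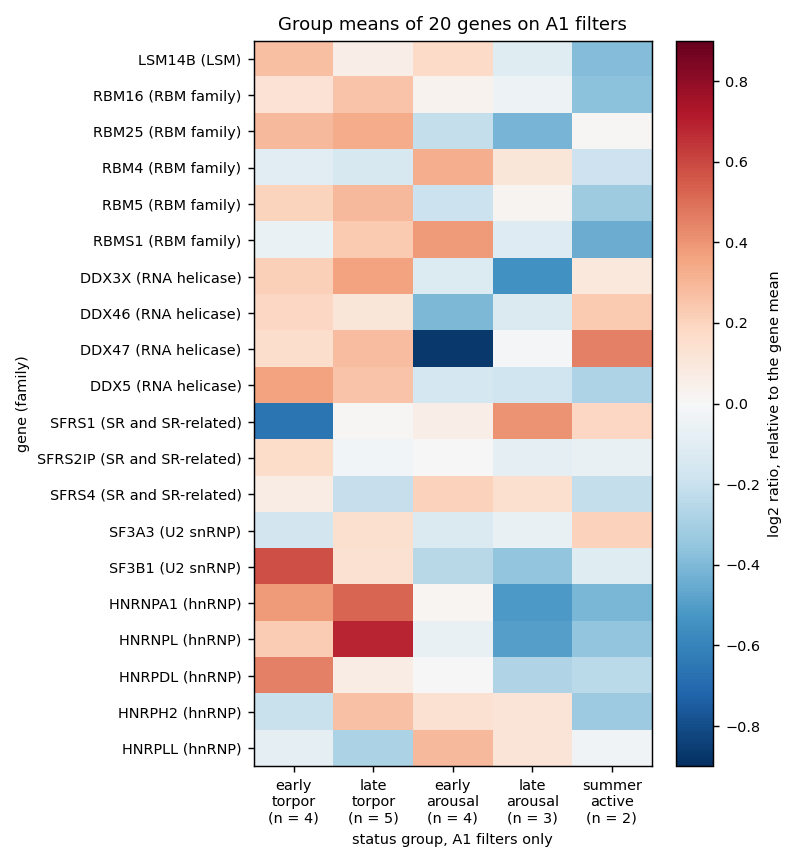
Group means of 20 genes on A1 membranes only, each as its log2 ratio relative to the mean of its 5 group means (colour), with status groups as columns and genes by family as rows. The darkest blue cell is DDX47 in early arousal, and the next is SFRS1 in early torpor.

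On A1 membranes alone the group means of the 20 genes had their highest value in late torpor for 7 genes, in early torpor for 5, in early arousal for 4, in summer for 3 and in late arousal for 1. The lowest was in summer for 8 genes and in late arousal for 7. The range over the 5 group means was 1.32 for DDX47, 1.18 for HNRNPL, 1.06 for SFRS1 and 1.04 for HNRNPA1, and 0.25 for SFRS2IP. Only 2 summer and 3 late arousal animals stand behind these means.

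Other RNA genes of the study's list were followed as 2 groups named by known function. Since they come from a list made on these contrasts, their counts too are a description. Of 25 other splicing and mRNA export genes, 4 were higher and 3 lower in torpor than in summer, against 5.5% and 4.35% of all probes, and 3 were higher and 4 lower in arousal, against 2.61% and 5.85%. Of 18 other RNA-binding, RNA turnover and helicase genes, 2 were higher and 6 lower in torpor than in summer, and 2 higher and 5 lower in arousal, against the same shares of all probes. Between torpor and arousal none of the first and 2 of the second were called, against 0.469%, and 11 and 9 had an unadjusted p under 0.05, where 14.1% of all probes did. With the membrane set as a block 1 of each was called in torpor against summer, THRAP3 and CIRBP, against 0.969%. Without the block the median torpor minus summer difference was -0.05 and -0.39 in these groups, beside 0.68 in the 20 genes. With the block the median of the 20 genes was 0.33, and those of these groups are not given.

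CIRBP, the cold-inducible RNA-binding protein, was higher in torpor than in summer by 2.40 (SE 0.19, adjusted p = 5.64e-09) and by 2.03 (SE 0.24, adjusted p = 3.71e-05) with the block. It was higher in torpor than in arousal by 1.38 (SE 0.18, adjusted p = 0.000335) and in arousal than in summer by 1.02 (SE 0.19, adjusted p = 0.00202). PRCC, a nuclear protein found with splicing factors, was higher in torpor and in arousal than in summer, by 1.31 (SE 0.29, adjusted p = 0.00559) and 1.27 (SE 0.30, adjusted p = 0.00909), and was not called with the block, at 0.24 and 0.39. SYNCRIP, an hnRNP of mRNA stability, was lower than in summer, at -1.27 (SE 0.24, adjusted p = 0.00175) in torpor and -0.92 (SE 0.25, adjusted p = 0.0201) in arousal, and was not called with the block, at -0.62 and -0.39.

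EIF4A2, a helicase of translation initiation, was lower in torpor than in summer at -1.01 (SE 0.21, adjusted p = 0.00376), and at -0.53 (adjusted p = 0.463) with the block. THOC2, a subunit of the mRNA export complex THO, was lower in arousal than in summer at -1.11 (SE 0.23, adjusted p = 0.00336), and at -0.82 (adjusted p = 0.117) with the block. G3BP1, a core protein of stress granules, was lower in torpor than in arousal at -0.83 (SE 0.19, adjusted p = 0.0391) and at -0.87 (SE 0.19, adjusted p = 0.0172) with the block. With the block THRAP3, at 0.96 (SE 0.17, adjusted p = 0.00809), and NONO, at 0.77 (SE 0.16, adjusted p = 0.0136), were also higher in torpor than in arousal. Both are nuclear RNA-binding proteins of splicing and were named after their values were seen.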

How the data were processed

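The authors scanned the membranes on a phosphorimager and read the spots with ImaGene 6.1.0, and the deposited intensity values are each spot's median and mean signal and local background. The deposited ratio values are background-subtracted signals over the array median, and 2297 spots hold the floor of 0.002. The series matrix holds these ratio values. Their log2 was computed here and used to pair listed genes with probes and as an alternative.

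From the intensities, log2 of (median signal - median background) over its array median was computed, with 668 of 230400 spots at or below 0 missing. limma 3.58.1 (R 4.3.3) was fitted to all probes over 3 states, over 5 status groups, and over state plus membrane set, with Benjamini-Hochberg adjustment over all probes tested. Each animal was on 1 membrane, so the spread behind the p-values holds animal and membrane variation together. Arrays within a group correlated at 0.891 to 0.965 and none was a duplicate. Fits were tested on simulated data. The genes, lists and tests were chosen with earlier results of these data known. All 22 genes are named. Of the other RNA genes, the 2 largest rises and 2 largest falls among those called are named per comparison. Alternatives were background correction, scaling, floors, empty and dim spots, mean pixels, membrane set, animal number prefix, the methods' ANOVA with Tukey's test, and leaving out each array. No reference genome or sequence was used, and 21 symbols matched the RefSeq gene table of the species. The number of arrays limits the precision.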

Additional observations from a re-analysis of the deposited data

Results flagged for a closer look

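Of 110 gene and group combinations, SF3B2 and RBM42 included, 8 held an animal whose gap to the others was past Dixon's limit, and chance flags about 1 in 20. DDX46 was -0.27 in early arousal replicate 4, where the other 3 animals ran from -0.75 to -0.71. DDX47 was 0.16 in summer active replicate 7, on an A2 membrane, with the others at 0.56 to 0.84. HNRNPA1 was 3.0 in summer active replicate 5, on A2, with the others at 1.59 to 2.19. RBM4 was 0.19 in late arousal replicate 1, with the others at -0.69 to -0.54.

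RBMS1 was -1.66 in early arousal replicate 1, with the others at -0.78 to -0.70, and -3.61 in summer active replicate 7, on A2, with the others at -2.13 to -1.54. SF3B2 was -0.47 in early arousal replicate 3, with the others at -1.01 to -0.94, and -4.50 in late arousal replicate 2, the only A2 array of that group, with the others at -0.47 to -0.26. No test of a difference between 2 contrasts called any of the 22 genes. For DDX46 the arousal minus summer difference was 1.33 higher on A2 than on A1 membranes (SE 0.42, adjusted p = 0.379), where 6 of 9568 probes were called.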

How the results depend on the processing

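Counts of the 20 genes called between torpor and summer were 14 without and 0 with the membrane set as a block, 0 on A1 arrays, and 0 in both of these after quantile scaling, settings chosen after seeing the data, and 7 to 14 when each array was left out. Between arousal and summer 6 became 0 in the same 4 fits and 3 with the animal number prefix as a block, with 3 to 8 when each array was left out. Between torpor and arousal 0 became 2 with the membrane set as a block and with mean pixels, 1 on A1 arrays, without dim probes, with empty spots missing and with stages weighted equally, 7 in the methods' test, and 0 to 2 when each array was left out. The turn from late torpor to early arousal went from 1 to 0 after quantile scaling and to 0 when any 1 of early arousal replicates 1 and 4 and late torpor replicates 3 and 4 was left out, a range of 0 to 1. The stages and the turn from late arousal to early torpor stayed at 0, from 0 to 0 over the arrays left out. Between membrane sets 7 became 3 over summer arrays alone, and 3 to 7 when each array was left out, with 3 reached without summer active replicate 3, an A1 array. The low of 7 between torpor and summer came without either of summer active replicates 5 and 7. The low of 3 between arousal and summer came when any 1 of 7 arrays was left out. With the animal number prefix as a block 10 of the 20 genes were called between torpor and summer.

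Of the other splicing genes, 7 called between torpor and summer became 1, 7 between arousal and summer became 0, and 0 between torpor and arousal became 2 with the block, and the 7 of arousal became 4 after quantile scaling. Of the other RNA-binding genes, 8 and 7 became 1 and 1 with the block, and 7 became 4 after quantile scaling. Directions reversed for SFRS4 in torpor against summer (0.0685 with the block, 0.13 on A1 arrays, 0.0582 and 0.0945 in the same fits after quantile scaling), for DDX46 (-0.0899 on A1 arrays and -0.10 after quantile scaling) and for RBM42 in arousal against summer (-0.0071 after normexp). The cause was not tested. Of 36 named differences, those of SF3B2 and RBM42 included, under 1328 single settings, 1047 kept direction and call, 257 lost the call, 17 gained it and 7 reversed. No paired analysis was possible because each animal gave 1 array and replicate numbers only name animals in accession order. Dim A2 spots limit SF3B2 and RBM42.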
